A study of Mus musculus with 7 samples.

Results

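Disallowed genes are genes that most tissues express and that mature pancreatic β-cells keep at very low levels. The 10 members described here, Ldha, Slc16a1, Hk1, Acot7, Oat, Smad3, Igfbp4, Lmo4, Pdgfra and Rest, were chosen by name from this class, and each was found once among the 49315 mouse genes of the count files. All 10 passed the filter on low counts, which left 19893 genes for testing. Their levels were read in islets of 7-day-old mice from 4 βNrf2KO pools and 3 Nrf2lox/lox control pools. In βNrf2KO mice the transcription factor Nrf2, encoded by Nfe2l2, is deleted in β-cells, and the series asks how Nrf2 drives the proliferation of β-cells in newborn mice. Nrf2lox/lox mice carry loxP sites in the gene and serve as the control. The treatment protocol describes each sample as RNA combined from 5 animals, while the sample titles number single mice, so what the spread between samples stands for is not settled. They are called pools here, βNrf2KO pools carry the numbers 1, 2, 3 and 4, and control pools the numbers 1, 2 and 4. The promoter that drives the recombinase is not given in the sources used here. If they are pools, p-values measure the spread between pools and not between animals.

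A β-cell matches insulin release to blood glucose because nearly all glucose carbon that enters glycolysis goes on to the mitochondria. Lactate dehydrogenase A and the monocarboxylate carrier MCT1 would let the cell make, lose or take up lactate and pyruvate, and hexokinase 1 would phosphorylate glucose already at fasting levels. Newborn β-cells are immature, and many disallowed genes are turned off in the weeks after birth. Whole islets were sequenced, so a member's level is that of all islet cells together and not that of β-cells, and fewer cells of a type and less RNA per cell cannot be told apart.

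Pools held 18187382 to 20847474 counts in βNrf2KO and 21603654 to 25373105 counts in control. The recombinase Cre was read 24, 23, 46 and 73 times in βNrf2KO pools 1, 2, 3 and 4 and 0 times in every control pool. Nfe2l2 itself was at 75.4, 71.4, 79.8 and 75.6 TPM, the count corrected for gene length and scaled to a fixed sum over nuclear genes, in βNrf2KO pools 1, 2, 3 and 4, against 96.5, 47.8 and 56.0 TPM in control pools 1, 2 and 4. The log2 fold change, βNrf2KO minus control, was 0.08 ± 0.23 (SE, edgeR quasi-likelihood test, Benjamini-Hochberg adjusted p = 0.911), which became -0.10 without control pool 2 and -0.05 without control pool 4. Reads from exons that remain and from cells without Cre count toward the gene, so its level is no check of the deletion. The β-cell hormone genes were abundant, with Ins2 at 80063 to 109105 TPM in βNrf2KO and 26513 to 85534 TPM in control. The mitochondrial share of counts was 10.02% to 27.7% in βNrf2KO and 14.6% to 51.8% in control, a difference of -16.3 percentage points (exact two-sided permutation test over 35 splits, p = 0.229). Control pools 1 and 2 had the highest markers of mesenchyme, with summed levels of 1112 and 932 TPM, while control pool 4 had 413 and the βNrf2KO pools 395 to 768.

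For no member did βNrf2KO and control islets differ by more than the spread between pools. In edgeR's quasi-likelihood test, with p adjusted by Benjamini-Hochberg, 0 of 10 members passed an adjusted p of 0.05, and the smallest adjusted p among them was 0.585. None of all 19893 genes passed either (0% called), while DESeq2 called 2 genes (0.0101%) and limma-voom 0, none of them a member. At an unadjusted p under 0.05 there were 0 members, while 8.46% of all tested genes lay there. For each of the 10 members the βNrf2KO pools and the control pools overlapped, and 7% of all tested genes had groups that did not. Of the members 4 had a positive and 6 a negative log2 fold change, where 50.6% of all tested genes were negative, with a median of -0.24 over the list and -0.01 over all tested genes. The members' median was -0.05 without control pool 1 and -0.04 without control pool 2. Without control pool 4 the split was 2 positive and 8 negative. With a covariate for mesenchyme markers the split was 8 positive and 2 negative, with a median of 0.13 against 0.02 over all tested genes. The markers were themselves lower in sign in 10 of 10, so the covariate overlaps with genotype and takes out differences shared with it. With the pool number as a block, which compares pairs 1, 2 and 4, 14 genes were called (0.0704%), again no member, and 1 member lay under an unadjusted p of 0.05, Ldha, against 12.1% of all genes. The members' 95% intervals were wide, and differences of up to 1.40 (Ldha) and -1.80 (Pdgfra) on the log2 scale lie inside them.

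**Figure D1:**
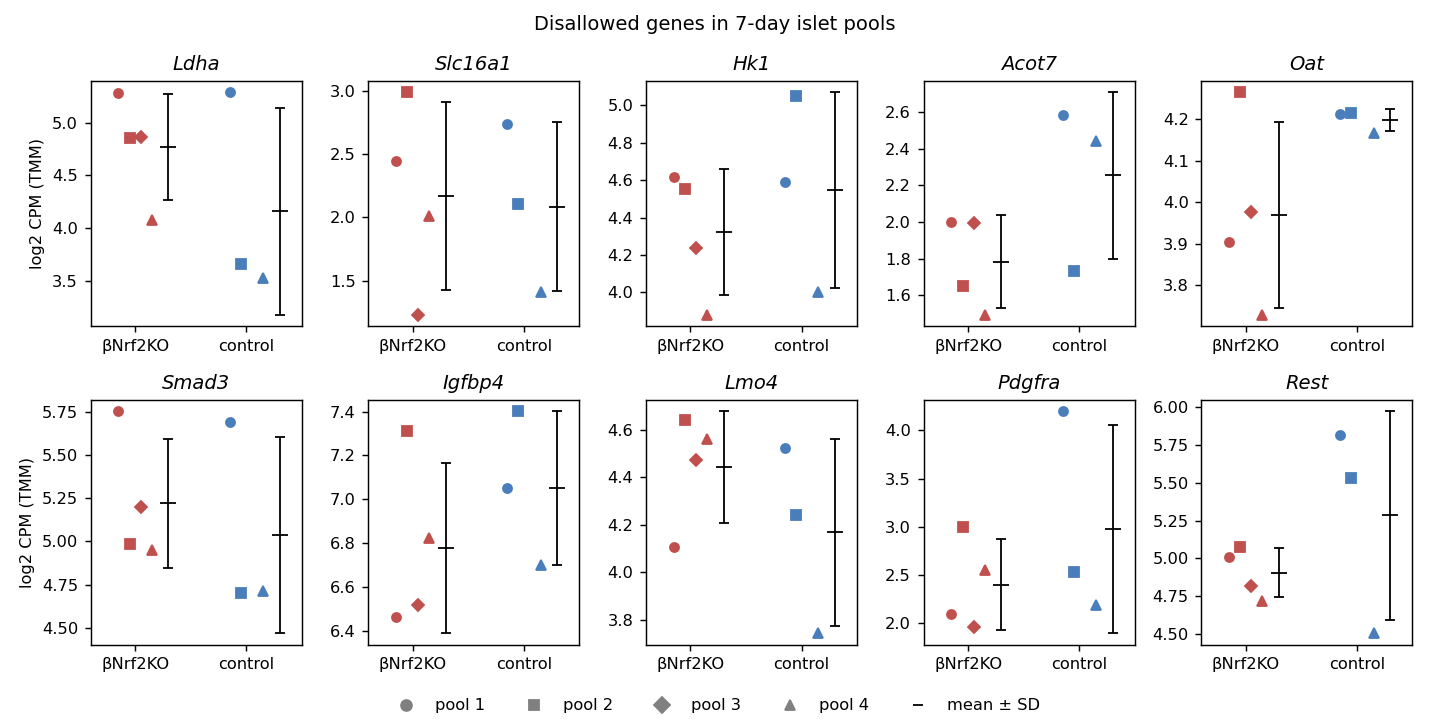
Log2 CPM (TMM-normalised counts scaled to library size) of the 10 members in 4 βNrf2KO pools (red, left) and 3 control pools (blue, right), with 1 symbol per pool number and the mean ± SD as a bar beside the points. In every panel the groups overlap, and control pool 1 is the highest of the 7 pools for Ldha, Acot7, Pdgfra and Rest.

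**Figure D2:**
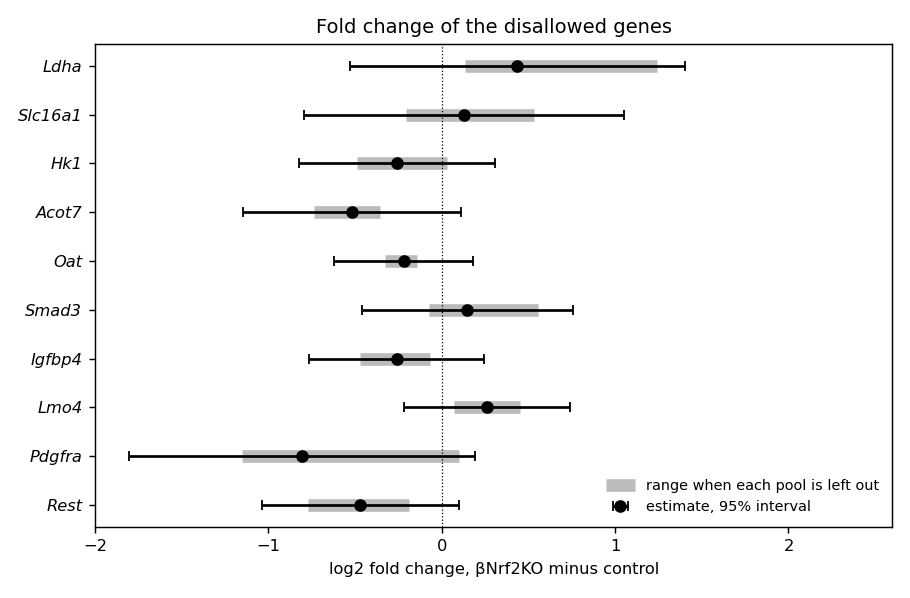
Log2 fold change of each member, βNrf2KO minus control, as a dot with its 95% interval, over a grey bar that spans the values found when each of the 7 pools is left out. Every interval includes 0, and the grey bars of Slc16a1, Hk1, Smad3 and Pdgfra cross 0.

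The spread lay mainly in the control pools. In 7 of 10 members the SD of log2 CPM was larger among the 3 control pools than among the 4 βNrf2KO pools, as it was in 68.0% of all tested genes. Control pool 1 was the highest of the 7 pools for 4 members, Ldha, Acot7, Pdgfra and Rest, and for 12.3% of the tested genes at a mean log2 CPM of 1 or more. The summed level of the 10 members was 271, 361, 259.9 and 276 TPM in βNrf2KO pools 1, 2, 3 and 4, against 349, 308 and 226 TPM in control pools 1, 2 and 4. Per unit length Igfbp4 was the most abundant member, at the percentile 95.8 of the mean TPM of tested genes. Ldha (76.7), Oat (75.2), Smad3 (73.6), Lmo4 (70.5) and Rest (65.8) followed, then Hk1 (49.2), Acot7 (41.4), Slc16a1 (27.9) and Pdgfra (19.9).

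Ldha (ENSMUSG00000063229, chromosome 7, 46841475 to 46855627, plus strand, GRCm38) encodes the muscle-type subunit of lactate dehydrogenase, which turns pyruvate into lactate. It was at 50.1, 40.8, 39.5 and 24.7 TPM in βNrf2KO pools 1, 2, 3 and 4, against 50.1, 15.9 and 15.1 TPM in control pools 1, 2 and 4. All 4 βNrf2KO pools lay above control pools 2 and 4, and control pool 1 equalled the highest βNrf2KO pool. The mean was 38.8 ± 10.5 TPM in βNrf2KO (SD, n = 4) and 27.0 ± 19.98 TPM in control (SD, n = 3). The log2 fold change of Ldha was 0.44 ± 0.43 (SE, 95% interval -0.53 to 1.40, edgeR quasi-likelihood test, Benjamini-Hochberg adjusted p = 0.731). It was 1.24 without control pool 1 (adjusted p = 0.202 by the same edgeR test), 0.13 without control pool 4, and 0.57 ± 0.22 with the pool number as a block (adjusted p = 0.350 by edgeR). Within pairs the difference in log2 CPM was -0.01 for number 1, 1.19 for number 2 and 0.55 for number 4. The processed pseudogenes Ldha-ps and Ldha-ps2, which could share reads with Ldha, had 0 to 6 counts per pool, where Ldha had 190 to 725.

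The Ldha promoter is shown because it holds several of the letters that hypoxia-inducible factors recognise, and glycolysis and hypoxia genes, described further on, had mostly positive log2 fold changes. RefSeq sequence (GRCm38.p6, chr7:46845554-46845853, plus strand) from 250 bases before to 50 after a transcription start is printed with ACGTG and GCGTG on either strand in capitals.
Ldha promoter: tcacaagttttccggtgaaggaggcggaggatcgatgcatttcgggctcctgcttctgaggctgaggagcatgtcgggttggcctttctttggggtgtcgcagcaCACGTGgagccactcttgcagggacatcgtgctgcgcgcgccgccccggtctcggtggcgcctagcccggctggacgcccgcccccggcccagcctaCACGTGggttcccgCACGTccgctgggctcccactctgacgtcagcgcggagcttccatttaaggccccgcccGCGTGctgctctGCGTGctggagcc
It holds 5 matches to ACGTG, of which 4 lie as pairs in the palindrome CACGTG, and 2 to GCGTG. The window of another Ldha start (chr7:46846832-46847131), not printed, holds 0 matches to ACGTG and to CACGTG and 2 to GCGTG. Among 32851 promoter windows of the same length, 19.6% hold ACGTG, 32.4% GCGTG and 7.15% CACGTG. A match is a description of the letters, not a bound site, and a role of these letters in the islets was not tested.

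Ldhb encodes the heart-type subunit, whose enzyme works mainly from lactate to pyruvate. It was at 5.54, 7.55, 8.19 and 8.35 TPM in βNrf2KO pools 1, 2, 3 and 4, against 7.996, 10.8 and 9.002 TPM in control pools 1, 2 and 4. In TPM the groups overlapped, and in TMM-normalised log2 CPM every βNrf2KO pool lay below every control pool, as for 3.81% of all tested genes. For Ldhb the log2 fold change came to -0.42 ± 0.28 (SE, edgeR quasi-likelihood test, Benjamini-Hochberg adjusted p = 0.625). The share of Ldha in the length-corrected sum of Ldha and Ldhb needs no library size, and it was 90.0%, 84.4%, 82.8% and 74.7% in βNrf2KO pools 1, 2, 3 and 4, against 86.2%, 59.6% and 62.6% in control pools 1, 2 and 4. Control pool 1 again lay within the βNrf2KO range and the other control pools below it. The means were 83.0% ± 6.33 in βNrf2KO (SD, n = 4) and 69.5% ± 14.6 in control (SD, n = 3, exact two-sided permutation test, p = 0.229, adjusted over 2 shares 0.343, the other share not being reported here), where the smallest p the design allows is 0.0571.

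Slc16a1 (ENSMUSG00000032902, chromosome 3, 104638668 to 104658462, plus strand) encodes MCT1, which carries lactate and pyruvate across the plasma membrane. In people, mutations that switch its promoter on in β-cells cause insulin release during exercise. It was at 5.17, 8.33, 2.29 and 4.34 TPM in βNrf2KO pools 1, 2, 3 and 4, against 6.33, 4.01 and 2.53 TPM in control pools 1, 2 and 4. The βNrf2KO pools held both the highest and the lowest value, and the values rest on 48 to 168 counts per pool. The mean was 5.03 ± 2.51 TPM in βNrf2KO (SD, n = 4) and 4.29 ± 1.91 TPM in control (SD, n = 3). For Slc16a1 the log2 fold change was 0.13 ± 0.42 (95% interval -0.79 to 1.05, edgeR quasi-likelihood test, Benjamini-Hochberg adjusted p = 0.924). It was -0.21 without βNrf2KO pool 2, -0.16 without control pool 4 and 0.53 without control pool 1.

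The Slc16a1 promoter is shown because, beside the letters above, it holds TGACNNNGC, the core of the antioxidant response element that Nrf2 recognises together with small Maf proteins. The RefSeq window (GRCm38.p6, chr3:104638414-104638713, plus strand) has matches to ACGTG and GCGTG and to TGACNNNGC on either strand in capitals.
Slc16a1 promoter: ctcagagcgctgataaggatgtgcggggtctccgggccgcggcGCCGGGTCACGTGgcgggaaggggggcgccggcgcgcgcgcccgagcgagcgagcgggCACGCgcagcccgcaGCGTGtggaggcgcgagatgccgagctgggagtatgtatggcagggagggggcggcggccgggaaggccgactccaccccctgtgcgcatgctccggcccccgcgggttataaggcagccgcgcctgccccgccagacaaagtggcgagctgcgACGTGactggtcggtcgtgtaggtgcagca
It holds 3 matches to ACGTG, 2 to GCGTG and 1 to TGACNNNGC, which overlaps a CACGTG. TGACNNNGC was found in 12.4% of all 32851 windows and in 2 of the 13 windows of members, those of Slc16a1 and Hk1. Of the members 9 were matched to a window and Rest was not. CpG, the dinucleotide that DNA methylation acts on, was above the median of 7 per window in 10 of 13 member windows. The Slc16a1 window held 42 and the printed Ldha window 30, while those of Acot7 and Pdgfra held 6 and 5 and an Hk1 window 1. Ldha, Hk1 and Lmo4 have more than 1 window each and some of those of Lmo4 overlap, so windows are not separate members. The Smad palindrome GTCTAGAC was in 0 of 13 member windows and in 0.213% of all windows.

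In mouse β-cells the microRNAs of the miR-29 family are known to hold Slc16a1 down through its 3′ untranslated region. The mature sequences from RefSeq (GRCm38.p6) share the seed, bases 2 to 8, in capitals, and below them stands the Slc16a1 site from GENCODE M21 (chr3:104655781-104655808, plus strand) with the letters that pair with the seed in capitals.
mmu-miR-29a-3p: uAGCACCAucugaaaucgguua
mmu-miR-29b-3p: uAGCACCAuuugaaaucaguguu
mmu-miR-29c-3p: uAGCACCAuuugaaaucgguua
Slc16a1 site: cctctagtctaccagTGGTGCTcagtgc
The match starts at base 74 of the untranslated region, which is 2740 bases long and has no other match. The same 7 letters occurred 2 times in the longest such region of Igfbp4, 2 times in that of Pdgfra and 1 time in that of Rest, and not in those of the other 6 members. They occurred in 13.1% of the 21092 genes with an annotated region, whose median length was 955 bases. The regions of Igfbp4, Pdgfra and Rest were longer than that, with 2813, 3115 and 3448 bases. Among the members without a match, Smad3 had 3495 bases and the others 283 to 1054. Libraries of this kind read few hairpins, and Mir29a had 1 to 10 counts, Mir29b-1 had 0 to 5 and Mir29b-2 and Mir29c had 0 counts in all 7 pools, so the microRNAs themselves were not measured.

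Of 23 further genes of lactate and pyruvate use, 17 had a positive and 6 a negative log2 fold change, with a median of 0.11. At an unadjusted p under 0.05 there were 2 higher (3.23% of all tested genes were higher there) and 1 lower (5.23% were lower). With the pool number as a block there were 5 higher and 1 lower, where 1198 and 1217 of 19893 tested genes were higher and lower. Pdp2, a phosphatase that activates pyruvate dehydrogenase, was at 9.57 to 12.1 TPM in βNrf2KO and 4.77 to 8.27 TPM in control, with a log2 fold change of 0.62 ± 0.21 (edgeR quasi-likelihood test, Benjamini-Hochberg adjusted p = 0.571). Pdk1, the kinase that switches the same enzyme off, was at 10.2 to 17.7 TPM in βNrf2KO and 6.99 to 11.6 TPM in control, with a log2 fold change of 0.61 ± 0.22 (adjusted p = 0.571 by the edgeR test). Slc16a3 encodes MCT4, the lactate exporter of glycolytic cells, and was at 7.70, 7.88, 7.09 and 6.55 TPM in βNrf2KO pools 1, 2, 3 and 4, against 8.81, 1.88 and 2.63 TPM in control pools 1, 2 and 4. As for Ldha, control pool 1 was high and control pools 2 and 4 were low, and its log2 fold change of 0.63 ± 0.44 (adjusted p = 0.639 by edgeR) became 1.59 without control pool 1. Bsg, basigin, the partner that brings MCT1 and MCT4 to the membrane, had a log2 fold change of 0.20 ± 0.25 (adjusted p = 0.788 by edgeR) and -0.07 without control pool 2.

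**Figure D3:**
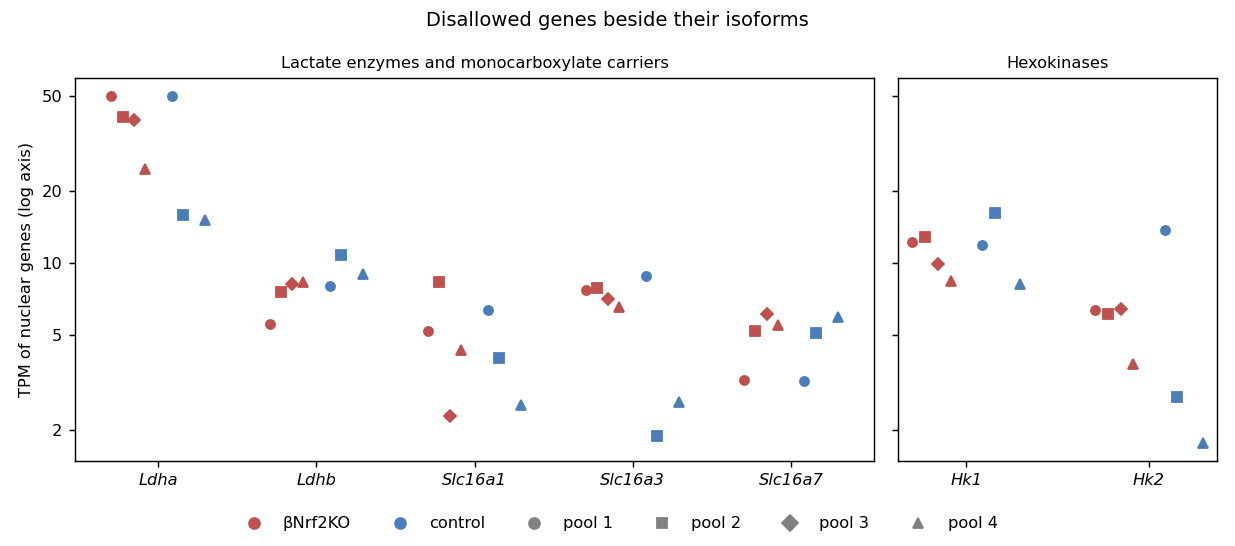
Levels in TPM of nuclear genes (log axis) of Ldha and Slc16a1 beside Ldhb, Slc16a3 and Slc16a7 on the left, and of Hk1 beside Hk2 on the right, with βNrf2KO pools in red left of control pools in blue and 1 symbol per pool number. Ldha lies above Ldhb in every pool, and for Ldha, Slc16a3 and Hk2 control pool 1 stands above control pools 2 and 4.

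Hk1 (ENSMUSG00000037012, chromosome 10, 62268855 to 62379908, minus strand) encodes a hexokinase with high affinity for glucose. It was at 12.3, 12.8, 9.91 and 8.37 TPM in βNrf2KO pools 1, 2, 3 and 4, against 11.9, 16.3 and 8.20 TPM in control pools 1, 2 and 4. In TPM the control pools spanned the whole βNrf2KO range. In log2 CPM βNrf2KO pool 4 (3.88) lay below the lowest control pool, number 4 (4.00). The estimate for Hk1 was a log2 fold change of -0.26 ± 0.26 (95% interval -0.82 to 0.31, edgeR quasi-likelihood test, Benjamini-Hochberg adjusted p = 0.731), and it was 0.03 without control pool 2 and -0.49 without control pool 4. The antisense gene Hk1os shares 157 exon bases with Hk1 and had 0 to 15 counts, where Hk1 had 398 to 500, and with no strand setting given in the sources used here their reads cannot be told apart there.

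Of 9 tested genes of glucose entry and phosphorylation 7 had positive and 2 negative log2 fold changes, with a median of 0.30. At an unadjusted p under 0.05, 1 was higher and 0 were lower, where 3.23% and 5.23% of all tested genes were. With the block 4 were higher, where 1198 of 19893 tested genes were. Slc2a1, the glucose transporter GLUT1, was at 106, 66.3, 111 and 53.2 TPM in βNrf2KO pools 1, 2, 3 and 4, against 66.2, 18.1 and 18.3 TPM in control pools 1, 2 and 4, with control pool 1 among the βNrf2KO values. Its log2 fold change was 1.22 ± 0.52 (adjusted p = 0.571 by the edgeR test), and 2.13 without control pool 1. G6pc2, the islet glucose-6-phosphatase, had a log2 fold change of 0.65 ± 0.30 (adjusted p = 0.571 by the edgeR test), and 1.13 without control pool 4.

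Acot7 (ENSMUSG00000028937, chromosome 4, 152178134 to 152271855, plus strand) encodes a cytosolic thioesterase that cleaves long-chain fatty acyl-CoA. It was at 7.87, 6.72, 8.24 and 6.25 TPM in βNrf2KO pools 1, 2, 3 and 4, against 11.8, 6.40 and 11.04 TPM in control pools 1, 2 and 4. Control pools 1 and 4 lay above all βNrf2KO pools and control pool 2 among them. The mean was 7.27 ± 0.936 TPM in βNrf2KO (SD, n = 4) and 9.75 ± 2.93 TPM in control (SD, n = 3). The log2 fold change was -0.52 ± 0.29 (95% interval -1.15 to 0.11, edgeR quasi-likelihood test, Benjamini-Hochberg adjusted p = 0.587), negative whichever pool was left out, with -0.73 without control pool 2 and -0.36 without control pool 1. The difference was negative in all 3 pairs as well, with -0.59, -0.09 and -0.95 in log2 CPM for numbers 1, 2 and 4. Of 12 tested genes for other acyl-CoA thioesterases 8 had positive and 4 negative log2 fold changes, with a median of 0.06 and 0 at an unadjusted p under 0.05 in either direction. The smallest p among them were those of Acot9, a mitochondrial member (-0.52 ± 0.25, adjusted p = 0.571 by edgeR), and Acot1, a cytosolic member (-0.65 ± 0.34, adjusted p = 0.575 by edgeR), whose groups did not overlap.

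Oat (ENSMUSG00000030934, chromosome 7, 132557478 to 132576398, minus strand) encodes the mitochondrial ornithine aminotransferase, which links ornithine with proline and glutamate. It was at 27.0, 38.0, 29.8 and 27.2 TPM in βNrf2KO pools 1, 2, 3 and 4, against 33.2, 32.9 and 33.2 TPM in control pools 1, 2 and 4. The control pools were nearly equal, and βNrf2KO pool 2 lay above them while the other βNrf2KO pools lay below. The log2 fold change of Oat was -0.22 ± 0.18 (95% interval -0.62 to 0.18, edgeR quasi-likelihood test, Benjamini-Hochberg adjusted p = 0.684), and it ran from -0.33 to -0.14 when each pool was left out. Of 15 tested genes of ornithine, proline and polyamine metabolism 4 had positive and 11 negative log2 fold changes, with a median of -0.24. At an unadjusted p under 0.05, 1 was lower and 0 were higher (0 in either direction with the block). Of all tested genes 5.23% were lower and 3.23% higher there. The lower gene was Aldh4a1, which oxidises glutamate semialdehyde in proline breakdown, at 3.01 to 4.34 TPM in βNrf2KO and 4.82 to 6.16 TPM in control, with a log2 fold change of -0.60 ± 0.24 (adjusted p = 0.571 by edgeR). Azin1, the inhibitor of antizyme that spares ornithine decarboxylase, had a log2 fold change of -0.36 ± 0.17 (adjusted p = 0.571 by edgeR).

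Smad3 (ENSMUSG00000032402, chromosome 9, 63646767 to 63757994, minus strand) encodes a transcription factor that receptors of TGF-β and activin activate. It was at 41.7, 26.7, 29.7 and 27.1 TPM in βNrf2KO pools 1, 2, 3 and 4, against 39.6, 19.7 and 20.7 TPM in control pools 1, 2 and 4. Pool 1 was the highest in both groups, and the other control pools lay below all βNrf2KO pools. The log2 fold change was 0.15 ± 0.28 (95% interval -0.46 to 0.76, edgeR quasi-likelihood test, Benjamini-Hochberg adjusted p = 0.861). It was 0.55 without control pool 1 (adjusted p = 0.349 by the same test), and it turned to -0.08 without βNrf2KO pool 1, -0.02 without control pool 2 and -0.02 without control pool 4. Within pairs 1, 2 and 4 the difference in log2 CPM was 0.07, 0.28 and 0.24. Across the 7 pools Smad3 and Ldha had the closest pattern of any 2 members, with a Pearson correlation of log2 CPM of 0.90, given as a description over pools that share their libraries.

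Of 23 genes of TGF-β and SMAD signalling 13 had positive and 10 negative log2 fold changes, with a median of 0.09. At an unadjusted p under 0.05, 0 were higher and 2 lower, where 3.23% and 5.23% of all tested genes were. With the block 1 was higher and 2 lower, where 1198 and 1217 of 19893 tested genes were. Both lower ones in the main fit were ligands. Tgfb2 was at 18.6 to 31.8 TPM in βNrf2KO and 27.8 to 41.7 TPM in control, with a log2 fold change of -0.51 ± 0.21 (edgeR quasi-likelihood test, Benjamini-Hochberg adjusted p = 0.571). Tgfb3 was at 6.10 to 11.1 TPM in βNrf2KO and 7.66 to 15.8 TPM in control, with a log2 fold change of -0.73 ± 0.31 (adjusted p = 0.571 by edgeR). Without control pool 1 none of these 23 genes was lower at that p and 4 were higher, where 1511 and 1382 of 20466 tested genes were lower and higher. Without control pool 2 none of the 23 was lower, where 289 of 20587 tested genes were.

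Igfbp4 (ENSMUSG00000017493, chromosome 11, 99041244 to 99054392, plus strand) encodes a secreted protein that binds insulin-like growth factors and releases them when the protease PAPP-A cleaves it. It was at 85.3, 169, 93.0 and 125 TPM in βNrf2KO pools 1, 2, 3 and 4, against 128, 161 and 103 TPM in control pools 1, 2 and 4. In TPM, βNrf2KO pools 1 and 3 lay below the control pools and βNrf2KO pool 2 above them. For Igfbp4 the log2 fold change was -0.26 ± 0.23 (95% interval -0.77 to 0.25, edgeR quasi-likelihood test, Benjamini-Hochberg adjusted p = 0.698), and it ran from -0.47 without βNrf2KO pool 2 to -0.07 without control pool 2. Of 13 tested genes that bind IGF or act on Igfbp4, 7 had positive and 6 negative log2 fold changes, with a median of 0.01. At an unadjusted p under 0.05, 2 were higher and 2 lower, where 3.23% and 5.23% of all tested genes were. Igfbp3, the main IGF carrier of blood, was at 268, 359, 368 and 256 TPM in βNrf2KO pools 1, 2, 3 and 4, against 272, 125 and 126 TPM in control pools 1, 2 and 4 (log2 fold change 0.74 ± 0.28, adjusted p = 0.571 by edgeR). Igf2, a growth factor that Igfbp4 binds, was at 239 to 358 TPM in βNrf2KO and 225 to 538 TPM in control (-0.63 ± 0.27, adjusted p = 0.571 by edgeR), and Igfbp5, a related binding protein, had -0.59 ± 0.25 with the same adjusted p by edgeR.

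Pdgfra (ENSMUSG00000029231, chromosome 5, 75152292 to 75198215, plus strand) encodes a receptor for platelet-derived growth factor that young β-cells use to proliferate and that mesenchymal cells express strongly. It was the least abundant member per unit length, at 1.78, 3.68, 1.70 and 2.81 TPM in βNrf2KO pools 1, 2, 3 and 4, against 7.78, 2.38 and 1.95 TPM in control pools 1, 2 and 4. Control pool 1 stood apart, and control pools 2 and 4 lay within the βNrf2KO range. The mean was 2.49 ± 0.937 TPM in βNrf2KO (SD, n = 4) and 4.04 ± 3.25 TPM in control (SD, n = 3). With -0.81 ± 0.45 its log2 fold change was the most negative of the 10 members (95% interval -1.80 to 0.19, edgeR quasi-likelihood test, Benjamini-Hochberg adjusted p = 0.587). It became 0.10 without control pool 1 and -1.15 without control pool 4 (adjusted p = 0.225 by edgeR), and within pairs 1, 2 and 4 the difference in log2 CPM was -2.11, 0.46 and 0.37. The genes Gm42802 and Gm42803 share exon bases with Pdgfra and had 0 counts in every pool.

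Mesenchyme markers were lower in sign as well, and their order over pools was not always that of Pdgfra. All 10 had negative log2 fold changes, with a median of -0.72. At an unadjusted p under 0.05 there were 5 of 10 (5.23% of all tested genes were lower there). Without control pool 1 or 2 the count was 1, where 1511 of 20466 and 289 of 20587 tested genes were lower. Without control pool 4 it was 9, where 1894 of 20326 were lower. Without βNrf2KO pool 1, 3 or 4 it was 3, where 1123 of 19598, 565 of 19713 and 579 of 19418 were lower. Col3a1, a fibrillar collagen, was at 80.3, 110.2, 61.5 and 80.7 TPM in βNrf2KO pools 1, 2, 3 and 4, against 183, 163 and 68.3 TPM in control pools 1, 2 and 4. Dcn, the matrix proteoglycan decorin, was at 58.8, 50.9, 24.3 and 32.9 TPM in βNrf2KO pools 1, 2, 3 and 4, against 208, 97.9 and 37.1 TPM in control pools 1, 2 and 4. Both were highest in control pool 1. Leaving that pool out put 9 of 10 markers below 0 with a median of -0.59, while Pdgfra was at 0.10. In pair 2 the markers' mean log2 CPM was 5.94 in βNrf2KO and 6.39 in control, where Pdgfra was higher by 0.46. None of the 10 markers was at 0 in any pool. With their mean log2 CPM as a covariate, the log2 fold change of Pdgfra was 0.09, and those of Hk1, Igfbp4 and Rest also turned positive, to 0.14, 0.08 and 0.13. In that fit 2 members, Slc16a1 (0.83) and Lmo4 (0.59), lay under an unadjusted p of 0.05, against 2.59% of all tested genes, each with an adjusted p of 0.9998 by edgeR.

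**Figure D4:**
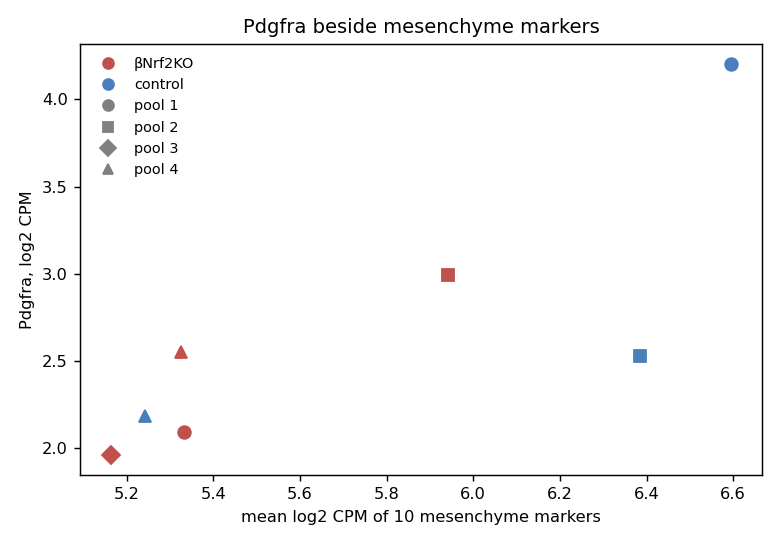
Log2 CPM of Pdgfra (vertical) against the mean log2 CPM of 10 mesenchyme markers (horizontal) in 4 βNrf2KO pools (red) and 3 control pools (blue), with 1 symbol per pool number. Control pool 1 is the highest on both axes, and control pool 2 is high in the markers with Pdgfra at 2.53.

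Pericyte and smooth muscle markers were likewise lower in sign in 7 of 7, with a median of -0.82 and 5 at an unadjusted p under 0.05 (2 without control pool 2 or βNrf2KO pool 4, and 3 without control pool 1 or βNrf2KO pool 3), and the median was -0.33 without control pool 2. The counts of all tested genes lower in these fits stand with the mesenchyme markers above. With the block 1 pericyte and smooth muscle marker passed the adjusted threshold, Myh11, the myosin of smooth muscle, which was named after its values were seen. It was at 19.6, 25.9, 14.7 and 14.9 TPM in βNrf2KO pools 1, 2, 3 and 4, against 34.0, 58.5 and 28.3 TPM in control pools 1, 2 and 4, so the groups did not overlap. For Myh11 the log2 difference was -1.20 ± 0.28 (edgeR quasi-likelihood test, Benjamini-Hochberg adjusted p = 0.571), and -1.07 with the block (adjusted p = 0.0482 by edgeR). Acinar markers were lower in sign in 8 of 8 tested (median -0.85, 0 under that p), with summed levels of 334, 801, 230.5 and 192 TPM in βNrf2KO pools 1, 2, 3 and 4, against 1238, 479.9 and 191 TPM in control pools 1, 2 and 4. That direction rests on control pool 1, without which 5 acinar markers were positive and 3 negative with a median of 0.0074, and with the mesenchyme covariate 7 were positive with a median of 0.35. Leukocyte markers were lower in sign in 8 of 8 (median -0.45, 0 under that p), but 4 were positive and 4 negative without control pool 1 (median -0.08). Nerve markers were lower in sign in 7 of 7 (median -0.45, 1 under that p), with 5 lower and a median of -0.17 when control pool 2 was left out. Erythroid markers were lower in sign in 5 of 6 (median -0.37), with a median of -0.14 without control pool 2, of -0.72 without βNrf2KO pool 2, of -0.61 without control pool 4 and of 0.10 with the mesenchyme covariate. Endothelial markers were positive in 6 of 7 (median 0.24, and 0.14 without control pool 4) and duct markers in 4 of 7 (median 0.33, and 0.0095 without control pool 2). Under that p 1 duct gene was higher, where 3.23% of all tested genes were. Alpha cell markers had no stable sign, with 5 of 6 positive and a median of 0.11 that ran from -0.13 without βNrf2KO pool 3 to 0.61 without control pool 4, was negative without control pools 1 and 2 as well, and was -0.06 with the block. Delta cell markers were positive in 3 of 4, with a median of 0.17 that ran from 0.01 without βNrf2KO pool 3 to 0.46 without control pool 4 and was -0.11 with the mesenchyme covariate. The part of acinar, muscle and blood cells in the members' values was not tested.

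Of the 5 other genes of the PDGF system, 4 had negative log2 fold changes and 1 a positive one, with a median of -0.37. At an unadjusted p under 0.05, 1 was lower, where 5.23% of all tested genes were. Without control pool 4 the count was 3, where 1894 of 20326 tested genes were lower. Pdgfrb, the other receptor and itself among the 10 mesenchyme markers, was at 61.8, 105, 76.6 and 80.6 TPM in βNrf2KO pools 1, 2, 3 and 4, against 94.0, 159.8 and 75.8 TPM in control pools 1, 2 and 4 (-0.55 ± 0.25, edgeR quasi-likelihood test, Benjamini-Hochberg adjusted p = 0.571). Its highest pool was control pool 2, where Pdgfra was at 2.38 TPM. Pdgfc, a ligand of Pdgfra, was at 0.675 to 1.34 TPM in βNrf2KO and 0.716 to 2.61 TPM in control (-0.96 ± 0.47, adjusted p = 0.571 by edgeR).

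Lmo4 (ENSMUSG00000028266, chromosome 3, 144188530 to 144205220, minus strand) encodes a LIM-only protein that binds the adaptor Ldb1 and so competes with LIM-homeodomain factors such as Isl1. It was at 20.7, 33.0, 28.2 and 32.5 TPM in βNrf2KO pools 1, 2, 3 and 4, against 27.6, 22.4 and 16.5 TPM in control pools 1, 2 and 4. In TPM, βNrf2KO pools 2, 3 and 4 lay above the control pools and βNrf2KO pool 1 among them. The mean was 28.6 ± 5.68 TPM in βNrf2KO (SD, n = 4) and 22.2 ± 5.53 TPM in control (SD, n = 3). The estimate for Lmo4 was a log2 fold change of 0.26 ± 0.22 (95% interval -0.22 to 0.74, edgeR quasi-likelihood test, Benjamini-Hochberg adjusted p = 0.684), with 0.07 without control pool 4 and 0.45 without control pool 1. Of 10 genes for its partners and relatives 4 had positive and 6 negative log2 fold changes, with a median of -0.04. At an unadjusted p under 0.05, 0 were higher and 2 lower (0 lower with the block). Of all tested genes 3.23% were higher and 5.23% lower there. Ldb1 was at 67.0, 77.9, 60.7 and 76.8 TPM in βNrf2KO pools 1, 2, 3 and 4, against 67.8, 125 and 80.7 TPM in control pools 1, 2 and 4 (-0.47 ± 0.21, adjusted p = 0.571 by edgeR, and -0.16 without control pool 2). Ssbp4, of the family of proteins that stabilise Ldb1, had -0.35 ± 0.16 with the same adjusted p by edgeR.

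Rest (ENSMUSG00000029249, chromosome 5, 77265491 to 77286432, plus strand) encodes the repressor that keeps neuronal genes off in other tissues. β-cells, like neurons, lack it and express many of its targets. It was at 19.02, 21.8, 17.5 and 17.8 TPM in βNrf2KO pools 1, 2, 3 and 4, against 33.1, 26.9 and 13.7 TPM in control pools 1, 2 and 4. Control pools 1 and 2 lay above all βNrf2KO pools and control pool 4 below them. The mean was 19.05 ± 1.97 TPM in βNrf2KO (SD, n = 4) and 24.6 ± 9.90 TPM in control (SD, n = 3), and the βNrf2KO pools had the smallest SD of log2 CPM of any member in that group, 0.16. The log2 fold change was -0.47 ± 0.26 (95% interval -1.04 to 0.10, edgeR quasi-likelihood test, Benjamini-Hochberg adjusted p = 0.585), and it was -0.77 without control pool 4 (adjusted p = 0.160 by edgeR) and -0.19 without control pool 1. Like the mesenchyme markers above, Rest was highest in control pools 1 and 2, and with the covariate for those markers it was 0.13.

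Of 10 corepressors of Rest 5 had positive and 5 negative log2 fold changes, with a median of 0.02. At an unadjusted p under 0.05, 1 was higher, where 3.23% of all tested genes were. With the block 2 were higher, where 1198 of 19893 tested genes were. Rcor3, a CoREST subunit, had a log2 fold change of 0.35 ± 0.18 (edgeR quasi-likelihood test, Benjamini-Hochberg adjusted p = 0.571). Of 20 known Rest targets 9 had positive and 11 negative log2 fold changes, with a median of -0.11. Under that p 2 were higher and 2 lower, where 3.23% and 5.23% of all tested genes were. Stmn2, a regulator of microtubules in neurons, was at 6.66, 8.38, 16.6 and 8.52 TPM in βNrf2KO pools 1, 2, 3 and 4, against 13.5, 20.3 and 24.0 TPM in control pools 1, 2 and 4. Only βNrf2KO pool 3 reached the control range, and its log2 fold change was -1.03 ± 0.31 (adjusted p = 0.571 by edgeR), or -1.38 with the pool number as a block (adjusted p = 0.0469 by edgeR), where it passed. Syn1, a synaptic vesicle protein, was at 151 to 240.02 TPM in βNrf2KO and 89.7 to 137 TPM in control (0.60 ± 0.20, adjusted p = 0.571 by edgeR), so these targets of the same repressor had opposite signs.

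DNA methylation and polycomb repression are among the means by which disallowed genes are kept off. Of 16 genes for these and related factors 9 had positive and 7 negative log2 fold changes, with a median of 0.19, and 0 were under an unadjusted p of 0.05 in either direction. Eed and Suz12, subunits of the polycomb complex PRC2, had 0.34 ± 0.20 (edgeR quasi-likelihood test, Benjamini-Hochberg adjusted p = 0.592) and 0.31 ± 0.19 (adjusted p = 0.618 by edgeR). Dnmt3a, the methyltransferase known to silence Ldha and Hk1 in mouse β-cells after birth, was at 92.1, 95.6, 95.4 and 114 TPM in βNrf2KO pools 1, 2, 3 and 4, against 80.7, 104 and 102 TPM in control pools 1, 2 and 4. For Dnmt3a the log2 fold change was -0.04 ± 0.15 (adjusted p = 0.928 by edgeR) and 0.03 without control pool 2, and it was named after its values were seen.

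A further 21 genes reported as low in mature β-cells had 3 positive and 18 negative log2 fold changes, with a median of -0.27. The median was -0.57 without control pool 4, and with the mesenchyme covariate the split was 11 positive and 10 negative with a median of 0.04. At an unadjusted p under 0.05 there were 0 higher and 5 lower (5.23% of all tested genes were lower there). The count of lower genes was 0 without control pool 2 and 10 without control pool 4, where 289 of 20587 and 1894 of 20326 tested genes were lower. It was 2 and 3 without βNrf2KO pool 3 or 4, where 565 of 19713 and 579 of 19418 were lower. With the mesenchyme covariate it was 0, where 318 of 19893 were lower. The smallest p was that of Ndrg2, a gene of cell growth control, at 22.3, 33.7, 23.6 and 24.4 TPM in βNrf2KO pools 1, 2, 3 and 4, against 37.0, 58.2 and 30.0 TPM in control pools 1, 2 and 4 (-0.79 ± 0.25, edgeR quasi-likelihood test, Benjamini-Hochberg adjusted p = 0.571). Itih5, of the hyaluronan-binding inter-alpha-trypsin inhibitors, was at 8.23 to 9.31 TPM in βNrf2KO and 9.57 to 14.8 TPM in control (-0.55 ± 0.20, adjusted p = 0.571 by edgeR).

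Of 26 genes of β-cell identity and maturation 21 had positive and 5 negative log2 fold changes, with a median of 0.29. At an unadjusted p under 0.05, 2 were higher (3.23% of all tested genes were higher there) and 1 lower (5.23% were lower). With the block 8 were higher, where 1198 of 19893 tested genes were. When each pool was left out 1 to 13 were higher, with 13 without control pool 4, where 1552 of 20326 tested genes were higher. Trpm5, a cation channel of β-cells, was at 44.4 to 63.6 TPM in βNrf2KO and 23.1 to 36.1 TPM in control (0.71 ± 0.18, edgeR quasi-likelihood test, Benjamini-Hochberg adjusted p = 0.571). Mafa, a transcription factor of mature β-cells, was at 28.8, 46.3, 34.7 and 32.2 TPM in βNrf2KO pools 1, 2, 3 and 4, against 48.1, 54.4 and 68.7 TPM in control pools 1, 2 and 4 (-0.78 ± 0.22, adjusted p = 0.571 by edgeR). The insulin genes had opposite signs, with -0.66 ± 0.31 for Ins1 and 0.75 ± 0.36 for Ins2 (adjusted p = 0.571 each by edgeR). Mki67, a marker of dividing cells, had -0.35 ± 0.17 (adjusted p = 0.571 by edgeR).

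Glycolysis and hypoxia genes, the class Ldha belongs to in most tissues, had mostly positive log2 fold changes in βNrf2KO islets. Of 24 such genes, Ldha not among them, 22 had positive and 2 negative log2 fold changes, with a median of 0.57. At an unadjusted p under 0.05 there were 14 higher and 0 lower (3.23% of all tested genes were higher there), and for 9 of 24 the groups did not overlap with βNrf2KO above (3.19% of all tested genes). None passed the adjusted threshold by edgeR, and the block added 1 lower gene. The count of 14 was 8 without control pool 2, 8 without βNrf2KO pool 3 and 6 with the mesenchyme covariate. Fewer of all tested genes were higher in those fits too, with 186 of 20587, 218 of 19713 and 198 of 19893, against 642 of 19893 in the main fit. Ero1l, an oxidase of the endoplasmic reticulum, was at 80.2, 79.3, 125 and 108 TPM in βNrf2KO pools 1, 2, 3 and 4, against 50.4, 16.5 and 42.2 TPM in control pools 1, 2 and 4 (1.33 ± 0.32, edgeR quasi-likelihood test, Benjamini-Hochberg adjusted p = 0.571). Bnip3, a mitophagy receptor, was at 44.7 to 74.9 TPM in βNrf2KO and 17.6 to 33.1 TPM in control (1.00 ± 0.24, adjusted p = 0.571 by edgeR). Eno1, the glycolytic enolase, was at 118 to 153 TPM in βNrf2KO and 48.3 to 90.8 TPM in control (0.87 ± 0.22, adjusted p = 0.571 by edgeR). In these 3 genes, named for their small p, control pool 1 lay below the βNrf2KO pools, whereas for Ldha, Slc2a1 and Slc16a3 it lay within their range or above it.

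**Figure D5:**
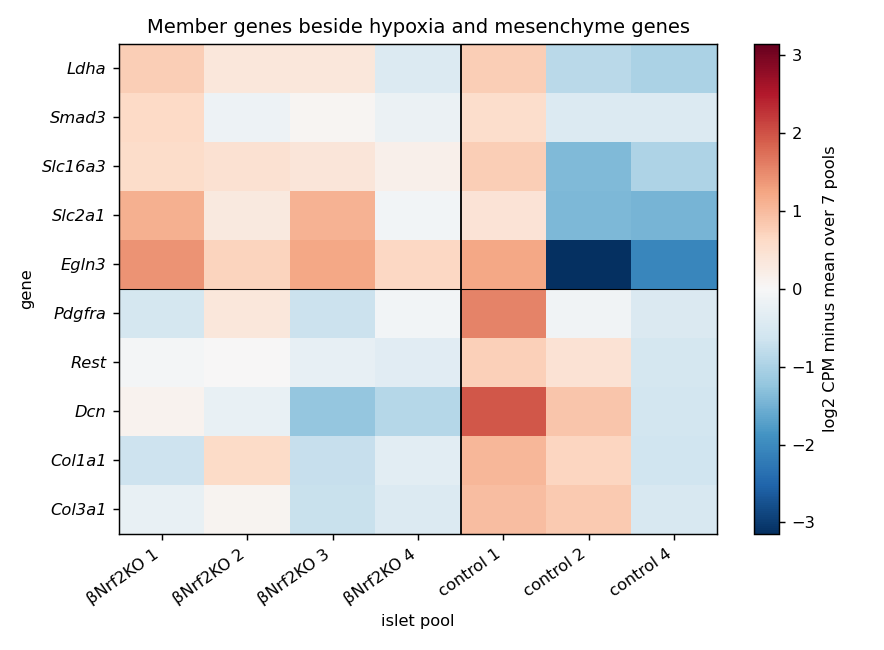
Log2 CPM of Ldha and Smad3 with 3 hypoxia or glucose genes (top) and of Pdgfra and Rest with 3 mesenchyme markers (bottom) in 4 βNrf2KO pools (left of the line) and 3 control pools (right), each gene shown as its difference from its mean over 7 pools. At the top control pools 2 and 4 are low and control pool 1 lies near the βNrf2KO pools, and at the bottom control pool 1 is the highest. Egln3 was chosen after its values were seen, and Ero1l, Bnip3 and Eno1, where control pool 1 lay below the βNrf2KO pools, are not shown.

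The genes whose log2 CPM followed each member most closely over the 7 pools are given as a description, with Pearson's r and no p, since 7 pools and the many tested genes yield high values readily and all share the same libraries. For Ldha they were Bcl6 (0.989), Adgrf5 (0.984) and Rnf125 (0.981). For Slc16a1 they were Zc3h3 (0.953), Abi3 (0.942) and Arhgdib (0.942), and for Hk1 Micall2 (0.992), E4f1 (0.984) and Dus3l (0.979). Acot7 was followed by 3 genes of small ribosomal subunit proteins, Rps28 (0.990), Rps15 (0.965) and Rps27 (0.946). Oat was closest to Osr2 (0.954), Ybx3 (0.951) and Pkd1l3 (0.950), and Smad3 to Zmynd15 (0.996), Ipo5 (0.990) and Zfp334 (0.989). Igfbp4 was closest to the globin gene Hba-a1 (0.989), then Stom (0.981) and Rassf5 (0.972), while Lmo4 was closest to Chsy1 (0.986), Msn (0.954) and Surf2 (0.951). Pdgfra was followed by the matrix metalloprotease Mmp2 (0.982), Pcdh7 (0.976) and the basement membrane collagen Col4a6 (0.967). Rest was followed by Numb (0.995), Cln3 (0.992) and the secreted glycoprotein Fstl1 (0.987). Between members, Hk1 and Rest (0.78) and Pdgfra and Rest (0.76) came after Ldha and Smad3.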

How the data were processed

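Islet RNA was sequenced as ribosome-depleted total RNA, extracted with a kit for small samples, per the labels' protocols. The authors deposited whole-number counts, not normalized. Tools listed in the submitters' processing notes are STAR 2.5.2b, featureCounts (Subread 1.5.2), Trimmomatic 0.36 and bcl2fastq 2.20. Strand setting, annotation release and the rule for reads with several matches are not given in the sources used here. GRCm39 is named as the build, but 91.4% of the 49056 gene IDs shared with GENCODE M21 have its GRCm38 start and end, so coordinates are GRCm38. Symbols were matched for 48970 IDs and not for 345. The Cre entry stayed out of library sizes and tests.

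Counts were tested with edgeR 4.0.16 in R 4.3.3 (TMM, filterByExpr, robust quasi-likelihood fit, two-sided, Benjamini-Hochberg adjustment over 19893 genes). Fold changes are βNrf2KO minus control with the SE of that fit over 4 and 3 pools. Log2 CPM used a prior count of 2, and TPM was computed over nuclear genes from the exon lengths in the files, leaving out mitochondrial genes. Shares were compared by exact permutation over 35 splits, doubling the smaller tail. Pools held 18187382 to 25373105 counts, and reads carry no molecular identifiers. Counting error depends on the counts of each gene. For Acot7 (49 to 161 counts per pool), Slc16a1 (48 to 168) and Pdgfra (78 to 323) it adds to the spread between pools. Within each group no pair of libraries was identical or agreed within sampling noise, and pairs across groups were not compared in this way.

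The members, lists and tests were chosen with earlier results of these data known. The text names the members, 7 of 8 fixed genes, up to 3 genes of smallest p per list (highest level for markers) and the 3 genes closest to each member at a mean log2 CPM of at least 1. Values of some listed genes are not reported here, though the lists' counts include them. Dnmt3a, Hk2, Slc16a7, Egln3 and Myh11 were chosen after their values were seen. Promoters came from RefSeq and 3′ untranslated regions from the longest annotated one per gene.

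The labels do not say what the pool numbers stand for. After removal of group means, pools of number 1, 2 and 4 correlated across genes at 0.376, 0.229 and 0.323, and pools of different numbers at -0.353 to 0.241, so the numbers were taken as pairs and a fit with them as a block was run. Pool 3 has no partner, and the pair of βNrf2KO 3 and control 4 (0.241) correlated more than the pair of number 2. Other settings were RLE and upper-quartile normalization, no mitochondrial genes, no filter, a filter of 1 CPM in 3 pools, DESeq2 1.42.0, limma-voom (limma 3.58.1), a mesenchyme covariate, a threshold of 0.1 and leaving out each pool. The edgeR steps were checked on simulated counts.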

Additional observations from a re-analysis of the deposited data

Results flagged for a closer look

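Among the 4 βNrf2KO pools, a single pool stood far from the other 3 for 4 of the 51 genes examined by Dixon's criterion at the 95% level. Such a gap occurs by chance in about 1 in 20 groups, and no member was among them. Control pools are not covered by that statement. Smad3 was at 5.69 log2 CPM in control pool 1, against 4.70 and 4.71 in control pools 2 and 4. Bsg was highest in βNrf2KO pool 3, at 5.89 log2 CPM. Ndrg2 was highest in βNrf2KO pool 2, at 3.96 log2 CPM, which put that pool within the control range. Itih5 was lowest in βNrf2KO pool 4, at 3.74 log2 CPM. Stmn2 was highest in βNrf2KO pool 3, at 4.38 log2 CPM.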

How the results depend on the processing

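In every setting tried, including a threshold of 0.1 and each pool left out, 0 of 10 members passed the adjusted threshold by edgeR, DESeq2 or limma-voom. The number of all genes called was 2 by DESeq2, 14 with the pool number as a replicate block, 1 without control pool 4 and 0 elsewhere (0 to 1 when each pool was left out). Members under an unadjusted p of 0.05 numbered 1 without a filter (Rest), 1 with the block (Ldha) and 2 with the mesenchyme covariate, and 0 to 2 when each pool was left out. Those were Ldha and Smad3 without control pool 1, Acot7 without control pool 2, and Pdgfra and Rest without control pool 4. Of all tested genes 2893 of 20466, 475 of 20587 and 3446 of 20326 lay under that p in these 3 fits, and 2620 of 33919 without a filter. For the 51 genes examined, 449 of 459 values under other settings kept sign and side of the threshold. The block passed Stmn2 (-1.38) and Myh11 (-1.07) and changed no other call among them. The mesenchyme covariate reversed 8, namely Hk1 (0.14), Igfbp4 (0.0812), Pdgfra (0.0934), Rest (0.13), Bsg (-0.0896), Igf2 (0.00413), Pdgfc (0.0155) and Col1a1 (0.22), and the cause was not tested. Leaving out each pool reversed 11 of 357 values in 7 genes, 4 of them members, over these ranges: Slc16a1 -0.21 to 0.53, Hk1 -0.49 to 0.0278, Smad3 -0.0754 to 0.55, Pdgfra -1.15 to 0.10, Nfe2l2 -0.10 to 0.45, Bsg -0.0716 to 0.56 and Dnmt3a -0.15 to 0.0306. The difference in Ldha share ran from 8.56 to 21.9 percentage points and that in mitochondrial share from -27.2 to -8.61, with none reversed. Without division by gene length the Ldha share differed by 8.84 percentage points. Medians near 0 changed sign when a pool was left out: acyl-CoA thioesterases -0.005, IGF-binding genes -0.067, LIM-only partners 0.075, Rest corepressors -0.016 and Rest targets 0.062 at the far end, and that of the PDGF genes was 0.016 with the mesenchyme covariate. The median of the lactate and pyruvate genes was 0.34 without control pool 4 and 0.03 with that covariate. List counts of 2 or fewer under an unadjusted p of 0.05 ran from 0 to 6 when each pool was left out, except 13 maturation genes without control pool 4. Over all tested genes the counts in those fits ran from 186 to 1552 higher and from 289 to 1894 lower. The count of glycolysis and hypoxia genes under each setting was added after seeing the data. With 3 control pools, 1 of which differs from the others for Ldha, Smad3 and Pdgfra, these data limit the size of a difference in the members only to the intervals given.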
